A study of Homo sapiens with 8 samples.

Results

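The genes described here are 41 genes of G2 phase and mitosis, taken by gene symbol from the 60592 rows that each library lists. All 41 symbols were found once, and all 41 lay at 1 FPKM or more in all 8 libraries, the lowest value being 3.95 FPKM. FPKM scales the fragments of a gene to the length of its model and the size of the library, so it is a level per length. The cells were WSU-DLCL2, a standard laboratory line of human diffuse large B-cell lymphoma, sequenced as bulk RNA after 48 h with 15 nM elesclomol (ES), a drug that binds copper and shuttles it into mitochondria, or with the solvent DMSO. Cells overexpressing FDX1 (FDX1-OE), the mitochondrial ferredoxin that reduces the copper carried by ES, were set beside control cells. The 4 groups of 2 libraries each were FDX1-OE with ES, control with ES, FDX1-OE with DMSO and control with DMSO. The labels give the control genotype as WT. They do not say whether control cells carry an empty vector, whether FDX1-OE cells are 1 clone, or whether the libraries of a group are separate cultures. The p-values therefore reflect the spread among these libraries alone, which could be technical.

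A cell that has copied its DNA passes through G2 and divides when cyclin B bound to the kinase CDK1 becomes active. Inhibitory phosphates on CDK1 are removed by the CDC25 phosphatases, and the kinases PLK1 and Aurora A push the switch further. Chromosomes are then condensed, caught by spindle microtubules at kinetochores and held until the spindle checkpoint is satisfied; CDC20 next turns on the anaphase promoting complex, which marks securin and cyclin B for destruction. Most of these genes are transcribed late in the cycle, when the MuvB complex with B-MYB and FOXM1 acts at promoters that carry a CHR element, often beside CCAAT boxes bound by NF-Y. The same genes are held down by the DREAM complex in resting cells and after p53 is activated.

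FDX1 had 60.7 and 59.4 FPKM in FDX1-OE ES libraries and 9.88 and 10.0 FPKM in control ES libraries, against 59.8 and 56.0 FPKM in FDX1-OE DMSO libraries and 10.8 and 10.4 FPKM in control DMSO libraries, so the libraries matched their FDX1 labels. All 9 B-cell markers were present in every library, with summed levels of 3249 to 3419 FPKM. T and NK cell markers summed to at most 0.932 FPKM, myeloid markers to at most 0.638 FPKM and epithelial and fibroblast markers to at most 1.77 FPKM. All values of 1 library summed to 403024 to 408018 FPKM in FDX1-OE ES libraries, 446949 to 447377 in control ES libraries, 445716 to 450451 in FDX1-OE DMSO libraries and 447014 to 451027 in control DMSO libraries. The number of rows at 1 FPKM or more was 11868 and 12047 in FDX1-OE ES libraries, 11225 and 11320 in control ES libraries, 10866 and 10858 in FDX1-OE DMSO libraries and 10815 and 10856 in control DMSO libraries. The absolute depth of the libraries is not given.

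Promoter windows of 4 members are shown because these genes lead the changes with ES in FDX1-OE cells in both directions and carry the CHR letters near the start of the gene model. Each window runs from 250 bases before to 50 bases after a RefSeq start on GRCh38.p14, written 5′ to 3′ on the gene's strand. Capitals mark the CHR (TTTGAA or TTCGAA) and the CCAAT box (CCAAT), searched on both strands. KIF4A lies at chrX:70289854-70290153 on the plus strand, CDC25C at chr5:138331755-138332054 on the minus strand, PLK1 at chr16:23678639-23678938 on the plus strand and CDC20 at chr1:43358731-43359030 on the plus strand. For CDC25C, which has 4 windows, the one with the CHR nearest the start is printed.
KIF4A: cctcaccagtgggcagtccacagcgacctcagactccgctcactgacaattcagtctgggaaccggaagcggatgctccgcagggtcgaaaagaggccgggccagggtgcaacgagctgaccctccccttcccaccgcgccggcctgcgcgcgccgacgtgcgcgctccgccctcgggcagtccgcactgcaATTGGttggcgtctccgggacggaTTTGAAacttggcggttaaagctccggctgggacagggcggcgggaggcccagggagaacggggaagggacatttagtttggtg
CDC25C: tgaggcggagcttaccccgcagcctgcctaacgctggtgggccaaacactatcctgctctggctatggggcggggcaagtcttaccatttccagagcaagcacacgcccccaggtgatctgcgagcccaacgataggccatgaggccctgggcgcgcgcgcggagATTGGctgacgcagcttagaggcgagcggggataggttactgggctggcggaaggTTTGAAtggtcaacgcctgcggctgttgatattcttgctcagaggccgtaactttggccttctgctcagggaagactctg
PLK1: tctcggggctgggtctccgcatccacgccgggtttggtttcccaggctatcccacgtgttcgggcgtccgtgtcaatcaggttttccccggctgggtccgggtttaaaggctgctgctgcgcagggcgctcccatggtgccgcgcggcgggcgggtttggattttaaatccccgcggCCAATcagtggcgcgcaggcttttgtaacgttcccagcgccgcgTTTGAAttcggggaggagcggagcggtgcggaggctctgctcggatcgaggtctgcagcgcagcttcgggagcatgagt
CDC20: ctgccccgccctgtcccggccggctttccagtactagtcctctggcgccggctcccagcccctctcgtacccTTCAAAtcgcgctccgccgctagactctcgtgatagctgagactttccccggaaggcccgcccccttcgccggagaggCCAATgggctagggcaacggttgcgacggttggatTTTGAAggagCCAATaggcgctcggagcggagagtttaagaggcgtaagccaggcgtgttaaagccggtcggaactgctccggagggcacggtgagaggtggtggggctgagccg

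The printed windows were picked for holding the CHR, so that they all hold it is not a result. Of the 4 CDC25C windows, 2 held neither motif. Counted in bases from the start, the CHR began at -34 in KIF4A, -30 in CDC25C and -29 in PLK1, and the CCAAT box at -58, -85 and -73. CDC20 held a CHR at -178 and -65 and a CCAAT box at -100 and -55. Of the 41 members, 34 had a window in the table, 44 windows in all. The CHR letters were in 29 of these 44 windows (65.9%), against 5742 of all 35116 RefSeq windows of the same length (16.4%). The CCAAT letters were in 33 of 44 (75.0%), against 34.6% of all windows, and both were in 24 of 44 (54.5%), against 6.38% of all windows. Each motif was counted on its own, also where 2 matches shared bases.

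Counted by gene, the CHR was in 11 of the 13 members with a window that were higher with ES in FDX1-OE cells, in 4 of the 6 that were lower and in 11 of the 15 that were not called. The CCAAT box was in 11 of 13, 6 of 6 and 11 of 15 of them. CCNB1, the member with the lowest log2 fold change, had no CHR letters in its window and a CCAAT box at -87 and -55. Over all 34 members with a window, 76.5% held the CHR and 82.4% the CCAAT box, against 15.2% and 44.3% of the 8768 genes tested that had a window. Among 9 related lists, the CHR share was 0 of 7 in G1 and S cyclins and CDKs, 6.45% in S phase and DNA replication genes, 3 of 15 in the brakes on CDKs, 29.4% in anaphase promoting complex genes and 36.8% in E2F, RB family and MuvB regulators. It was 4 of 10 in phosphatase control genes, 44.0% in other kinetochore genes, 58.8% in condensin and cohesin and 75.0% in other spindle and cytokinesis genes. A match is a description of letters, and its absence says only that these letters are not in this window.

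**Figure D1:**
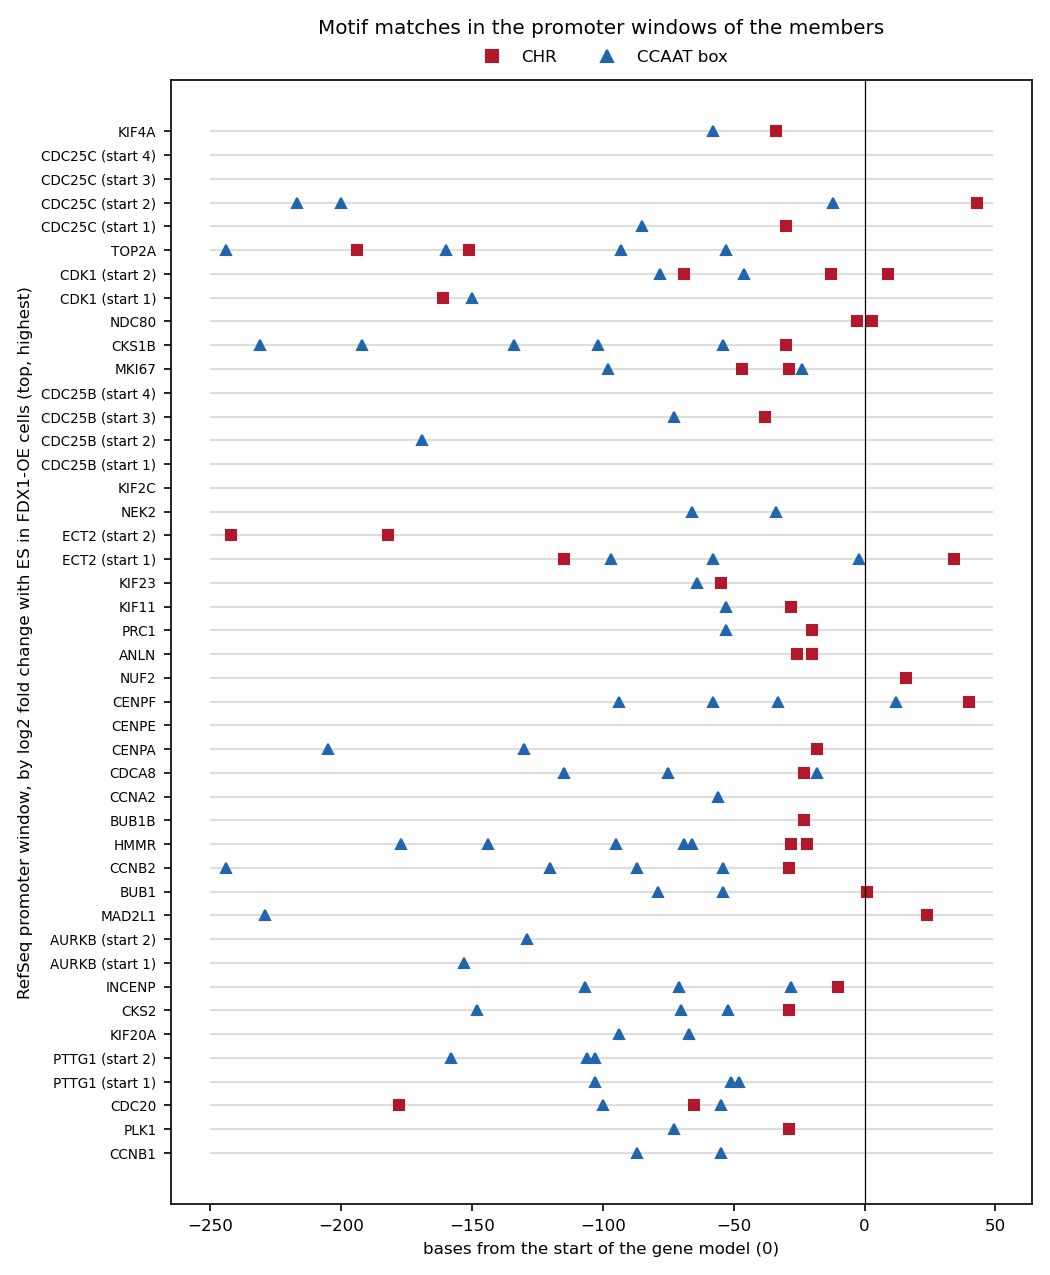
Positions of CHR (red squares) and CCAAT box (blue triangles) matches in the 44 RefSeq promoter windows of 34 members, in bases from the start of the gene model on the horizontal axis. Windows run down the page from the highest to the lowest log2 fold change with ES in FDX1-OE cells. The 34 genes include 26 with a CHR and 28 with a CCAAT box.

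With ES, FDX1-OE cells had a divided set of G2 and mitosis genes: 14 of 41 were higher and 7 were lower than in FDX1-OE cells with DMSO, and 20 were not called. KIF4A and CDC25C reached 2.05 times their DMSO mean, FOXM1 1.85 times, TOP2A 1.65 times and CDK1 1.60 times. CCNB1, PLK1 and CDC20 lay at 0.546, 0.583 and 0.630 times their DMSO mean. Fold changes are log2 differences on log2(FPKM + 1), which understate the change of low genes, and a gene was called where limma gave an adjusted p (Benjamini-Hochberg, across the 12063 genes tested) below 0.05. In bulk RNA, fewer or more cells in G2 and mitosis and a changed amount of RNA in each such cell cannot be told apart.

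Of all genes tested, 47.1% were called higher and 13.7% lower in that comparison, so the members' 14 higher calls (34.1%) were a smaller share and their 7 lower calls (17.1%) a slightly larger one. The median log2 fold change was 0.07 over the 41 members and 0.25 over all genes tested, and 26 members lay below the median of all genes. A gene was tested where 2 or more libraries reached 1 FPKM, so some, such as CDKN1A, entered only through the FDX1-OE ES libraries. Such genes favour higher calls, and no member was among them. Raising the threshold to 5 FPKM brought the median of all genes to 0.19, and that of the members stayed at 0.07. It left 14 members higher and 8 lower. The part of the gap owed to the filter was not tested. The split depended on scaling. With median-ratio scaling, which brought the median of all genes to 0.00, 6 members were higher and 19 lower. Quantile normalisation, with a median of -0.01, gave 10 higher and 8 lower, and equal FPKM totals, with a median of 0.37, gave 22 higher and 5 lower. CDK1, CDC25C, FOXM1, NDC80, KIF4A and TOP2A were higher, and CCNB1, PLK1, BUB3, CDC20 and PTTG1 lower, under each of the 17 alternative settings tried. No called member changed sign under any of them. Median-ratio scaling lost the higher calls of CDC25B, CKS1B, MKI67, NEK2, KIF11, KIF2C, KIF23 and ECT2. Quantile normalisation lost the higher calls of NEK2, KIF11, KIF23 and ECT2. Without FDX1-OE ES replicate 1 the counts were 13 higher and 13 lower, and without FDX1-OE ES replicate 2 they were 23 higher and 7 lower.

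**Figure D2:**
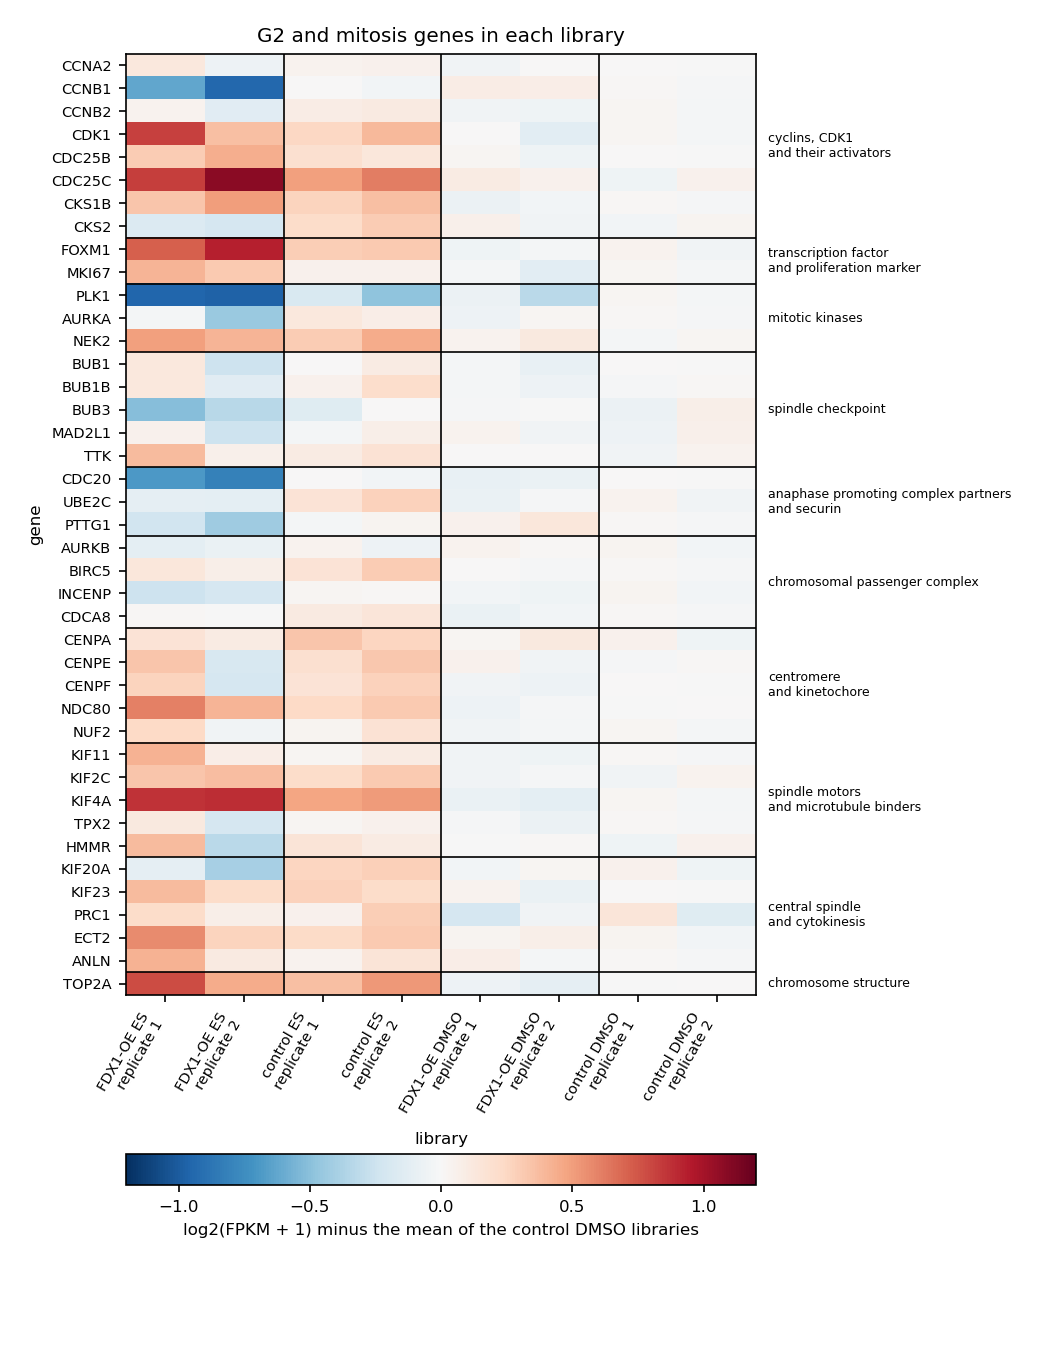
Level of each of the 41 genes (rows, grouped by role) in each of the 8 libraries (columns), as log2(FPKM + 1) minus the mean of the control DMSO libraries (red above, blue below). The FDX1-OE ES libraries hold the strongest reds (KIF4A, CDC25C, FOXM1) and the strongest blues (CCNB1, PLK1, CDC20). The control ES libraries are mostly pale red.

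Cyclins, CDK1 and their activators parted from each other: 4 of 8 were higher and 2 lower with ES in FDX1-OE cells. CDK1 (chr10:60778331-60794852, plus strand; positions of genes are from GENCODE 29 on GRCh38), the kinase that starts mitosis, had 113 and 82.3 FPKM in FDX1-OE ES libraries and 76.0 and 84.0 FPKM in control ES libraries, against 64.1 and 58.4 FPKM in FDX1-OE DMSO libraries and 64.7 and 62.9 FPKM in control DMSO libraries. All 4 ES libraries lay above all 4 DMSO libraries, and FDX1-OE ES replicate 1 was the highest of the 8. Its log2 fold change was 0.65 (SE 0.13, adjusted p = 0.00332) in FDX1-OE cells and 0.32 (SE 0.13, adjusted p = 0.164) in control cells. CCNB1 (chr5:69167010-69178245, plus strand), cyclin B1 and the partner of CDK1, had 59.0 and 47.3 FPKM in FDX1-OE ES libraries and 91.6 and 89.6 FPKM in control ES libraries, against 97.7 and 96.9 FPKM in FDX1-OE DMSO libraries and 92.5 and 90.5 FPKM in control DMSO libraries. Both FDX1-OE ES libraries lay below the other 6, and the control ES and control DMSO libraries overlapped. The log2 fold change was -0.87 (SE 0.09, adjusted p = 0.000155) in FDX1-OE cells and -0.01 (SE 0.09, adjusted p = 0.934) in control cells.

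CDC25C (chr5:138285265-138338355, minus strand), the phosphatase that frees CDK1 from its inhibitory phosphates, had 8.13 and 9.89 FPKM in FDX1-OE ES libraries and 6.22 and 6.83 FPKM in control ES libraries, against 4.47 and 4.31 FPKM in FDX1-OE DMSO libraries and 3.95 and 4.31 FPKM in control DMSO libraries. The FDX1-OE ES libraries were the highest, the control ES libraries came next, and the groups with ES and with DMSO did not overlap. Its log2 fold change came to 0.89 (SE 0.11, adjusted p = 0.000264) in FDX1-OE cells and 0.55 (SE 0.11, adjusted p = 0.0253) in control cells. CDC25C was the lowest of the 41 members in the 2 DMSO groups, and 293 bases of its exons (8.78%) overlap FAM53C on the opposite strand, which reached 56.4 FPKM and had a log2 fold change of 0.75. How the counting treated strand is not stated, so reads from the overlap cannot be told apart. CDC25B, the phosphatase that acts earlier at centrosomes, averaged 36.5 ± 2.46 FPKM in FDX1-OE ES, 31.4 ± 0.947 FPKM in control ES, 27.7 ± 0.995 FPKM in FDX1-OE DMSO and 28.0 ± 0.139 FPKM in control DMSO libraries (SD, n = 2), and its log2 fold change in FDX1-OE cells was 0.38 (SE 0.07, adjusted p = 0.00188).

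CKS1B and CKS2, the small adaptors that dock CDK1 to its substrates, differed. CKS1B averaged 118 ± 10.1 FPKM in FDX1-OE ES, 109.6 ± 5.24 FPKM in control ES, 85.0 ± 1.73 FPKM in FDX1-OE DMSO and 88.0 ± 1.53 FPKM in control DMSO libraries, with log2 fold changes of 0.47 (SE 0.07, adjusted p = 0.000783) in FDX1-OE cells and 0.31 (SE 0.07, adjusted p = 0.0397) in control cells. CKS2 averaged 119.7 ± 2.03 FPKM in FDX1-OE ES, 164 ± 7.23 FPKM in control ES, 137 ± 6.84 FPKM in FDX1-OE DMSO and 136 ± 4.74 FPKM in control DMSO libraries, and was lower in FDX1-OE cells, at a log2 fold change of -0.19 (SE 0.06, adjusted p = 0.0278), and higher in control cells, at a log2 fold change of 0.26 (SE 0.06, adjusted p = 0.0431). In FDX1-OE cells CKS2 was called under 11 of the 17 alternatives, and CKS1B under 16. CCNA2 and CCNB2, cyclins A2 and B2, were not called with ES in either line of cells. CCNA2 averaged 66.8 ± 6.17 FPKM in FDX1-OE ES, 67.3 ± 0.422 FPKM in control ES, 64.3 ± 1.21 FPKM in FDX1-OE DMSO and 65.1 ± 0.371 FPKM in control DMSO libraries. CCNB2 averaged 82.4 ± 7.36 FPKM in FDX1-OE ES, 91.1 ± 1.18 FPKM in control ES, 82.4 ± 0.335 FPKM in FDX1-OE DMSO and 85.0 ± 2.23 FPKM in control DMSO libraries.

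FOXM1 (chr12:2857681-2877155, minus strand), a transcription factor of late cell cycle genes, had 55.8 and 64.8 FPKM in FDX1-OE ES libraries and 41.5 and 42.1 FPKM in control ES libraries, against 32.3 and 33.0 FPKM in FDX1-OE DMSO libraries and 34.6 and 32.6 FPKM in control DMSO libraries. The FDX1-OE ES libraries were the highest, the control ES libraries came next, and neither overlapped any DMSO library. The fit gave a log2 fold change of 0.86 (SE 0.08, adjusted p = 7.93e-05) in FDX1-OE cells and 0.31 (SE 0.08, adjusted p = 0.0533) in control cells, where log2(FPKM + 0.1) gave an adjusted p of 0.0491. ITFG2 overlaps 781 bases of FOXM1 exons (15.9%) on the opposite strand, and its log2 fold change in FDX1-OE cells was 0.44. MKI67, the proliferation antigen Ki-67 that coats mitotic chromosomes, had 73.7 and 69.2 FPKM in FDX1-OE ES libraries and 57.4 and 57.5 FPKM in control ES libraries. It had 54.3 and 50.5 FPKM in FDX1-OE DMSO libraries and 56.1 and 54.6 FPKM in control DMSO libraries. Its log2 fold change was 0.44 (SE 0.06, adjusted p = 0.000587) in FDX1-OE cells and 0.05 (SE 0.06, adjusted p = 0.619) in control cells.

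The mitotic kinases did not move together. PLK1 (chr16:23677656-23690367, plus strand), which drives mitotic entry, spindle assembly and cytokinesis, had 71.6 and 70.4 FPKM in FDX1-OE ES libraries and 122 and 99.6 FPKM in control ES libraries, against 132 and 111 FPKM in FDX1-OE DMSO libraries and 142 and 137 FPKM in control DMSO libraries. Both FDX1-OE ES libraries lay below the other 6, and the control ES libraries lay below the control DMSO libraries. ES against DMSO gave a log2 fold change of -0.77 (SE 0.11, adjusted p = 0.000537) in FDX1-OE cells and -0.33 (SE 0.11, adjusted p = 0.0955) in control cells, so PLK1 was not called in control cells. NEK2, a centrosome kinase, averaged 21.2 ± 0.839 FPKM in FDX1-OE ES, 20.1 ± 1.5 FPKM in control ES, 16.2 ± 0.655 FPKM in FDX1-OE DMSO and 15.3 ± 0.397 FPKM in control DMSO libraries, with log2 fold changes of 0.37 (SE 0.08, adjusted p = 0.00362) in FDX1-OE cells and 0.37 (SE 0.08, adjusted p = 0.0304) in control cells. AURKA, Aurora A of the spindle poles, averaged 47.9 ± 10.1 FPKM in FDX1-OE ES, 60.2 ± 1.21 FPKM in control ES, 55.3 ± 2.28 FPKM in FDX1-OE DMSO and 56.0 ± 0.669 FPKM in control DMSO libraries, and its log2 fold change in FDX1-OE cells was -0.22 (SE 0.12, adjusted p = 0.141). Its FDX1-OE ES libraries, at 55.0 and 40.7 FPKM, stood on either side of the lowest DMSO library of FDX1-OE cells.

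Of 5 spindle checkpoint genes, BUB3 alone was called with ES in FDX1-OE cells. BUB3, which brings BUB1 and BUBR1 to kinetochores, averaged 73.0 ± 6.63 FPKM in FDX1-OE ES, 93.5 ± 6.84 FPKM in control ES, 97.4 ± 0.738 FPKM in FDX1-OE DMSO and 98.2 ± 6.90 FPKM in control DMSO libraries, with a log2 fold change of -0.41 (SE 0.08, adjusted p = 0.0034). Its kinase partner BUB1 averaged 35.9 ± 6.77 FPKM in FDX1-OE ES, 38.6 ± 1.84 FPKM in control ES, 35.7 ± 1.16 FPKM in FDX1-OE DMSO and 37.3 ± 0.0170 FPKM in control DMSO libraries. BUB1B, which encodes BUBR1, averaged 53.7 ± 6.89 FPKM in FDX1-OE ES, 59.0 ± 4.61 FPKM in control ES, 52.2 ± 0.881 FPKM in FDX1-OE DMSO and 53.7 ± 0.625 FPKM in control DMSO libraries. MAD2L1, the checkpoint protein that holds CDC20 inactive, averaged 15.9 ± 2.50 FPKM in FDX1-OE ES, 17.2 ± 0.889 FPKM in control ES, 17.0 ± 0.708 FPKM in FDX1-OE DMSO and 17.0 ± 1.00 FPKM in control DMSO libraries. TTK, the checkpoint kinase MPS1, averaged 18.5 ± 3.01 FPKM in FDX1-OE ES, 17.3 ± 0.734 FPKM in control ES, 15.7 ± 0.0186 FPKM in FDX1-OE DMSO and 15.7 ± 0.653 FPKM in control DMSO libraries, and its ES libraries lay above its DMSO libraries in FDX1-OE cells, with a log2 fold change of 0.22 (SE 0.10, adjusted p = 0.104). None of the 5 was called in control cells.

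The partners of the anaphase promoting complex and its substrate securin were lower or not called. CDC20 (chr1:43358955-43363203, plus strand), the activator that lets the complex start anaphase, had 86.8 and 79.5 FPKM in FDX1-OE ES libraries and 141 and 137 FPKM in control ES libraries, against 132 and 132 FPKM in FDX1-OE DMSO libraries and 141 and 139 FPKM in control DMSO libraries. Both FDX1-OE ES libraries lay below the other 6, which spanned 132 to 141 FPKM. The log2 fold change was -0.66 (SE 0.06, adjusted p = 7.46e-05) in FDX1-OE cells and -0.02 (SE 0.06, adjusted p = 0.892) in control cells. PTTG1, which encodes securin, the inhibitor of separase, had 118 and 103 FPKM in FDX1-OE ES libraries and 136 and 142 FPKM in control ES libraries, against 143 and 153 FPKM in FDX1-OE DMSO libraries and 139 and 137 FPKM in control DMSO libraries. Again the FDX1-OE ES libraries were the lowest 2, and the log2 fold change was -0.42 (SE 0.08, adjusted p = 0.00173) in FDX1-OE cells and 0.01 (SE 0.08, adjusted p = 0.97) in control cells. UBE2C, the ubiquitin-conjugating enzyme of the complex, averaged 79.6 ± 0.377 FPKM in FDX1-OE ES, 101 ± 5.84 FPKM in control ES, 83.5 ± 2.52 FPKM in FDX1-OE DMSO and 86.2 ± 3.27 FPKM in control DMSO libraries, and was not called with ES in FDX1-OE cells, at a log2 fold change of -0.07 (SE 0.06, adjusted p = 0.382), or in control cells, at a log2 fold change of 0.22 (SE 0.06, adjusted p = 0.071).

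**Figure D3:**
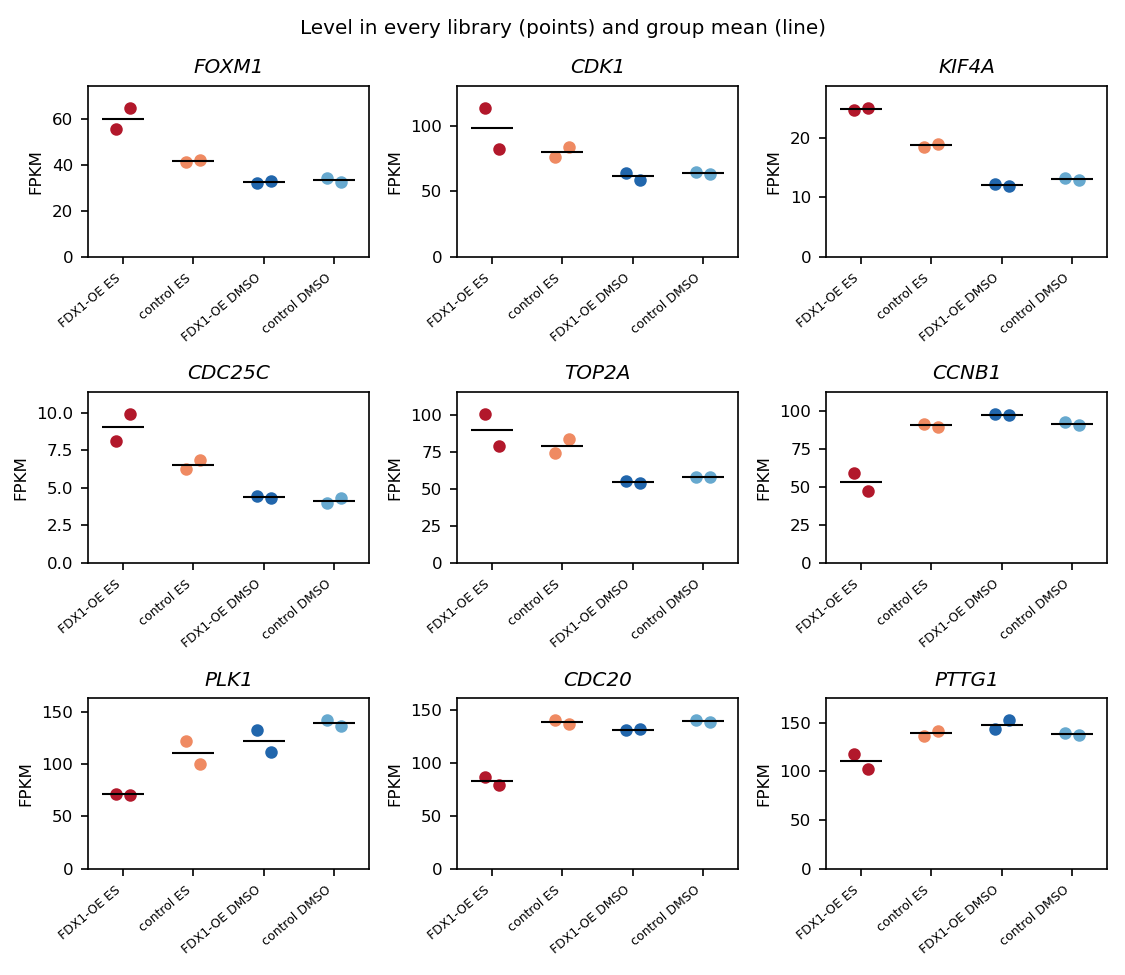
FPKM of 9 genes in each of the 8 libraries (points) with the group mean (line), on axes that start at 0, with the groups FDX1-OE ES, control ES, FDX1-OE DMSO and control DMSO in that order from left to right. FOXM1, CDK1, KIF4A, CDC25C and TOP2A were highest in FDX1-OE ES libraries by group mean and second in control ES libraries. CCNB1, PLK1, CDC20 and PTTG1 were lowest in FDX1-OE ES libraries.

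The chromosomal passenger complex, which corrects faulty attachments and guides cytokinesis, had 1 called member of 4. INCENP, its scaffold, averaged 29.6 ± 0.626 FPKM in FDX1-OE ES, 35.2 ± 0.240 FPKM in control ES, 33.8 ± 0.254 FPKM in FDX1-OE DMSO and 34.8 ± 1.31 FPKM in control DMSO libraries, with a log2 fold change of -0.18 (SE 0.06, adjusted p = 0.0279) in FDX1-OE cells that was called under 12 of 17 alternatives. AURKB, its kinase Aurora B, averaged 81.9 ± 1.54 FPKM in FDX1-OE ES, 87.0 ± 4.202 FPKM in control ES, 89.4 ± 1.07 FPKM in FDX1-OE DMSO and 87.6 ± 3.21 FPKM in control DMSO libraries. BIRC5, which encodes survivin, averaged 43.5 ± 1.47 FPKM in FDX1-OE ES, 48.0 ± 3.35 FPKM in control ES, 40.4 ± 0.332 FPKM in FDX1-OE DMSO and 40.5 ± 0.607 FPKM in control DMSO libraries. CDCA8, which encodes borealin, averaged 46.9 ± 0.505 FPKM in FDX1-OE ES, 51.2 ± 1.14 FPKM in control ES, 45.0 ± 1.25 FPKM in FDX1-OE DMSO and 46.8 ± 0.477 FPKM in control DMSO libraries. The log2 fold changes of these last 3 in FDX1-OE cells lay between -0.13 and 0.10, and none was called.

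Among 5 centromere and kinetochore genes NDC80 was higher. NDC80, the microtubule-binding subunit of the outer kinetochore, had 36.5 and 31.6 FPKM in FDX1-OE ES libraries and 28.0 and 29.7 FPKM in control ES libraries, against 22.7 and 23.5 FPKM in FDX1-OE DMSO libraries and 23.6 and 23.7 FPKM in control DMSO libraries. All ES libraries lay above all DMSO libraries, and the log2 fold change was 0.54 (SE 0.08, adjusted p = 0.000672) in FDX1-OE cells and 0.28 (SE 0.08, adjusted p = 0.0731) in control cells. NUF2, its partner in the same complex, averaged 26.1 ± 3.71 FPKM in FDX1-OE ES, 26.2 ± 1.85 FPKM in control ES, 23.7 ± 0.227 FPKM in FDX1-OE DMSO and 24.2 ± 0.503 FPKM in control DMSO libraries, with a log2 fold change of 0.13 (SE 0.10, adjusted p = 0.274) in FDX1-OE cells. CENPA, the histone H3 variant of centromeres, averaged 18.2 ± 0.618 FPKM in FDX1-OE ES, 20.5 ± 0.757 FPKM in control ES, 17.4 ± 0.867 FPKM in FDX1-OE DMSO and 16.5 ± 0.920 FPKM in control DMSO libraries. CENPE, the kinetochore kinesin, averaged 5.95 ± 1.77 FPKM in FDX1-OE ES, 6.75 ± 0.491 FPKM in control ES, 5.52 ± 0.294 FPKM in FDX1-OE DMSO and 5.49 ± 0.0935 FPKM in control DMSO libraries. CENPF, a large kinetochore and nuclear envelope protein, averaged 19.9 ± 4.74 FPKM in FDX1-OE ES, 22.4 ± 1.26 FPKM in control ES, 18.4 ± 0.177 FPKM in FDX1-OE DMSO and 19.1 ± 0.149 FPKM in control DMSO libraries. CENPA, CENPE and CENPF were not called in FDX1-OE or control cells.

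The spindle motors held the member with the largest log2 fold change. KIF4A (chrX:70290090-70420832, plus strand), a chromokinesin that shapes chromosome arms and the central spindle, had 24.6 and 25.0 FPKM in FDX1-OE ES libraries and 18.4 and 19.0 FPKM in control ES libraries, against 12.3 and 11.96 FPKM in FDX1-OE DMSO libraries and 13.2 and 12.8 FPKM in control DMSO libraries. The FDX1-OE ES libraries were the highest, the control ES libraries came next and the groups did not overlap. Its log2 fold change came to 0.98 (SE 0.07, adjusted p = 2.29e-05) in FDX1-OE cells and 0.49 (SE 0.07, adjusted p = 0.00901) in control cells. KIF2C, a kinesin that takes microtubules apart at centromeres, averaged 46.2 ± 0.833 FPKM in FDX1-OE ES, 43.5 ± 1.96 FPKM in control ES, 35.3 ± 0.401 FPKM in FDX1-OE DMSO and 36.0 ± 1.56 FPKM in control DMSO libraries, with log2 fold changes of 0.38 (SE 0.06, adjusted p = 0.00124) in FDX1-OE cells and 0.27 (SE 0.06, adjusted p = 0.0431) in control cells. KIF11, the motor that pushes spindle poles apart, averaged 47.3 ± 8.07 FPKM in FDX1-OE ES, 41.1 ± 1.48 FPKM in control ES, 38.0 ± 0.0346 FPKM in FDX1-OE DMSO and 39.3 ± 0.380 FPKM in control DMSO libraries, with a log2 fold change of 0.30 (SE 0.10, adjusted p = 0.0339) in FDX1-OE cells that was called under 6 of 17 alternatives.

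TPX2, which activates Aurora A on the spindle, averaged 77.6 ± 12.02 FPKM in FDX1-OE ES, 81.6 ± 1.42 FPKM in control ES, 77.2 ± 1.98 FPKM in FDX1-OE DMSO and 79.4 ± 1.48 FPKM in control DMSO libraries, and its log2 fold change in FDX1-OE cells was 0.00 (SE 0.09, adjusted p = 0.999). HMMR, a microtubule binder of the spindle poles, averaged 25.7 ± 9.06 FPKM in FDX1-OE ES, 26.8 ± 0.782 FPKM in control ES, 24.5 ± 0.143 FPKM in FDX1-OE DMSO and 24.4 ± 1.32 FPKM in control DMSO libraries. Its 2 FDX1-OE ES libraries, at 32.1 and 19.3 FPKM, lay on either side of every other library. On the log2(FPKM + 1) scale this was the widest gap of any member within a group, at -0.71 for replicate 2 minus replicate 1. Central spindle and cytokinesis genes were 2 higher of 5. KIF23, the motor of centralspindlin, averaged 25.6 ± 2.17 FPKM in FDX1-OE ES, 24.6 ± 0.630 FPKM in control ES, 20.3 ± 1.26 FPKM in FDX1-OE DMSO and 20.5 ± 0.112 FPKM in control DMSO libraries, with a log2 fold change of 0.32 (SE 0.08, adjusted p = 0.00881) in FDX1-OE cells. ECT2, the exchange factor that starts the cleavage furrow, averaged 20.1 ± 3.09 FPKM in FDX1-OE ES, 18.0 ± 0.829 FPKM in control ES, 15.3 ± 0.352 FPKM in FDX1-OE DMSO and 14.7 ± 0.511 FPKM in control DMSO libraries, with a log2 fold change of 0.37 (SE 0.10, adjusted p = 0.0136). ANLN, the furrow scaffold anillin, averaged 26.9 ± 4.17 FPKM in FDX1-OE ES, 23.8 ± 1.32 FPKM in control ES, 22.6 ± 1.19 FPKM in FDX1-OE DMSO and 22.1 ± 0.284 FPKM in control DMSO libraries, with a log2 fold change of 0.23 (SE 0.10, adjusted p = 0.0838). PRC1, which bundles central spindle microtubules, averaged 30.4 ± 2.36 FPKM in FDX1-OE ES, 31.0 ± 3.79 FPKM in control ES, 25.1 ± 2.03 FPKM in FDX1-OE DMSO and 27.5 ± 4.09 FPKM in control DMSO libraries, and shares 57.6% of its exon bases with another gene model on the same strand.

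KIF20A, the kinesin MKLP2 that carries passenger proteins to the midzone, had 22.7 and 18.4 FPKM in FDX1-OE ES libraries and 29.7 and 30.2 FPKM in control ES libraries, against 24.1 and 25.0 FPKM in FDX1-OE DMSO libraries and 25.6 and 23.7 FPKM in control DMSO libraries. It was lower in FDX1-OE ES than in FDX1-OE DMSO libraries and higher in control ES than in control DMSO libraries, with no overlap in either case. Neither difference was called, at a log2 fold change of -0.25 (SE 0.10, adjusted p = 0.0515) in FDX1-OE cells and 0.27 (SE 0.10, adjusted p = 0.121) in control cells. TOP2A (chr17:40388516-40417950, minus strand), the topoisomerase that untangles sister chromatids, had 101 and 79.6 FPKM in FDX1-OE ES libraries and 74.8 and 83.7 FPKM in control ES libraries, against 55.6 and 53.9 FPKM in FDX1-OE DMSO libraries and 58.0 and 58.2 FPKM in control DMSO libraries. All ES libraries lay above all DMSO libraries, while the FDX1-OE and control ES libraries overlapped. The fit gave a log2 fold change of 0.70 (SE 0.11, adjusted p = 0.000762) in FDX1-OE cells and 0.44 (SE 0.11, adjusted p = 0.045) in control cells.

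In control cells 7 of 41 members were higher with ES and 0 were lower. They were CDC25C, KIF4A, TOP2A, NEK2, CKS1B, KIF2C and CKS2, with log2 fold changes from 0.26 to 0.55. Over all genes tested 6.74% were called higher and 1% lower, and the median log2 fold change was 0.09, against 0.14 over the members, of which 36 (87.8%) lay above 0, as did 68.8% of all genes. Of the 7 members, 6 (85.7%) were also among the 14 higher with ES in FDX1-OE cells (42.9% of those 14), and the other, CKS2, was lower there. These 2 comparisons share no library. Both take their spread from 1 fit of all 8 libraries, so their calls are not independent. Over all genes tested, 95.6% of the genes higher in control cells were also higher in FDX1-OE cells (13.7% of those higher in FDX1-OE cells). Median-ratio scaling left 2 members higher, quantile normalisation 1 and equal FPKM totals 8, with none lower, and KIF4A was called under all 3.

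The control comparison rested on its own 4 libraries and on the spread of the others. Without control DMSO replicate 1, control DMSO replicate 2 or control ES replicate 2, 0 members were called. Without control ES replicate 1, FDX1-OE DMSO replicate 1 or FDX1-OE DMSO replicate 2, 1 member was. Without either FDX1-OE ES library, 17 were called higher. KIF4A had adjusted p of 0.0648 and 0.0828 without control DMSO replicate 1 and 2, and 0.10 without control ES replicate 2. CDC25C was not called without any 1 of the 6 libraries outside the FDX1-OE ES group, with adjusted p between 0.0541 and 0.183, nor was TOP2A, with adjusted p between 0.0839 and 0.273. No fold change of these 3 changed direction.

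**Figure D4:**
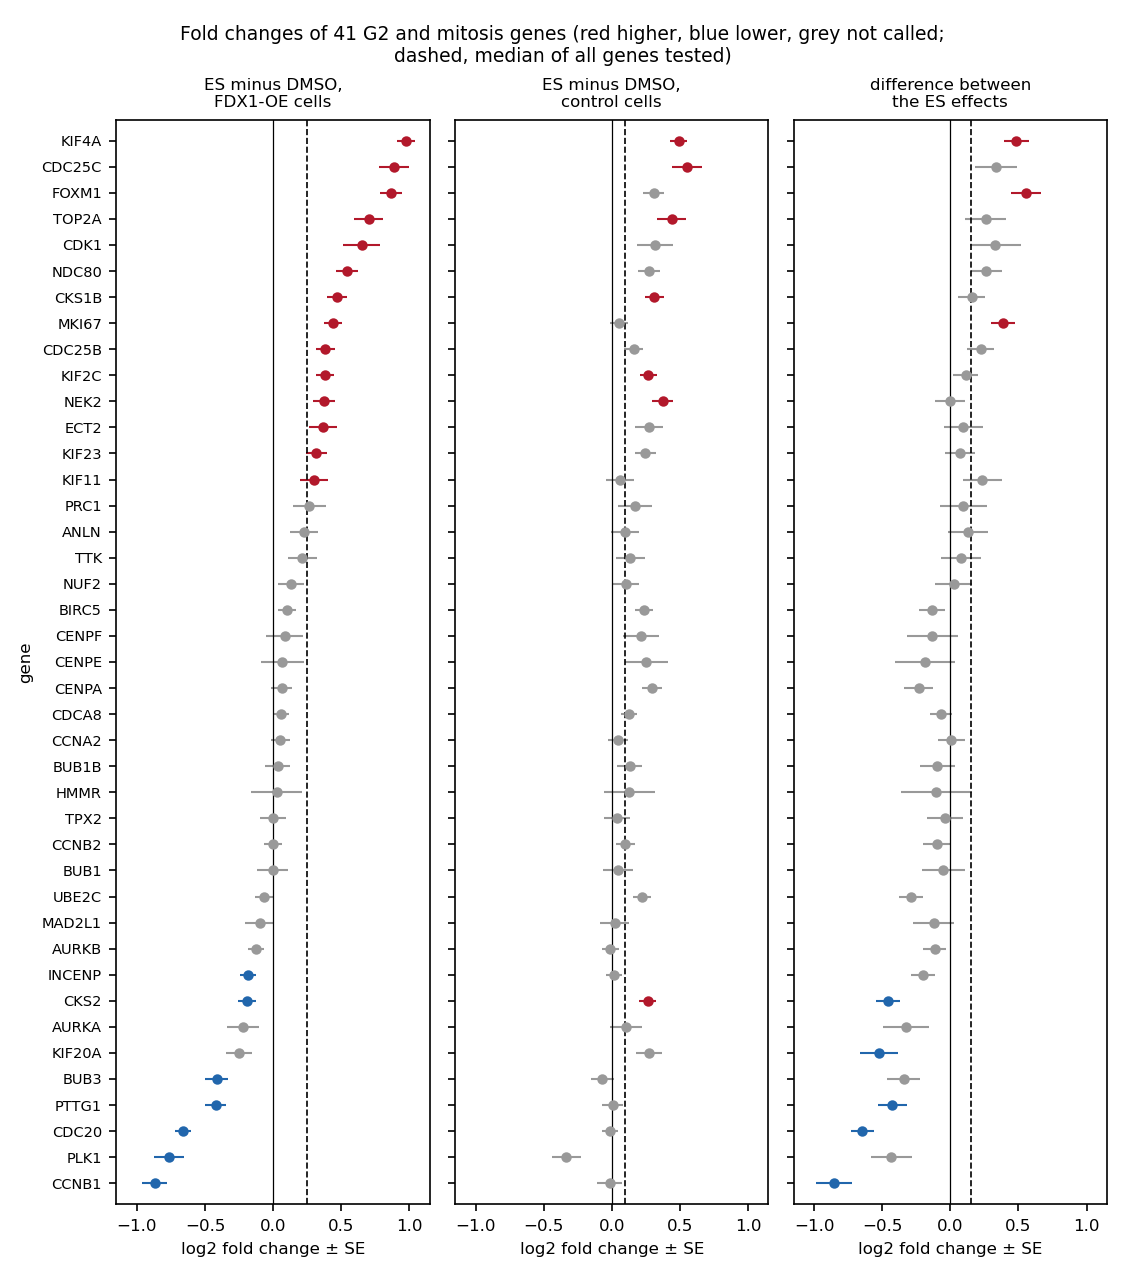
Log2 fold change with its SE for each of the 41 genes, ordered by the change with ES in FDX1-OE cells, for ES minus DMSO in FDX1-OE cells (left), ES minus DMSO in control cells (middle) and the difference between these ES effects (right). Red marks genes called higher and blue those called lower, and the dashed line marks the median of all genes tested (0.25, 0.09 and 0.15). KIF4A stands highest on the left at 0.98 and CCNB1 lowest at -0.87, and CCNB1 is also lowest on the right at -0.85.

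With ES in both, FDX1-OE cells had 6 members higher and 10 lower than control cells. FOXM1 was higher, at a log2 difference of 0.52 (SE 0.08, adjusted p = 0.00218), as were CDC25C, at a log2 difference of 0.41 (SE 0.11, adjusted p = 0.0182), and KIF4A, at a log2 difference of 0.39 (SE 0.07, adjusted p = 0.00317); MKI67, NDC80 and CDC25B were also called, with log2 fold changes of 0.31, 0.23 and 0.21. Of the 17 alternatives, MKI67 was called under 16, CDC25C under 10, CDC25B under 4 and NDC80 under 3. CCNB1 was lower, at a log2 difference of -0.77 (SE 0.09, adjusted p = 0.000943), CDC20, at a log2 difference of -0.73 (SE 0.06, adjusted p = 0.000193), and PLK1, at a log2 difference of -0.63 (SE 0.11, adjusted p = 0.00337). KIF20A, CKS2, BUB3, AURKA, PTTG1, UBE2C and INCENP were lower too, from -0.53 to -0.24, and of these PTTG1 was called under 15, BUB3 under 14, INCENP under 13 and AURKA under 4 of the 17. CDK1 was not called, at a log2 difference of 0.27 (SE 0.13, adjusted p = 0.134). All 3 members that partner or feed the anaphase promoting complex (CDC20, UBE2C and PTTG1) were lower and none of the 8 cyclin, CDK1 and activator genes other than CDC25B and CDC25C was higher.

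Of all genes tested, 31.1% were higher and 10.4% lower in FDX1-OE ES than in control ES libraries, and the members' shares were 14.6% and 24.4%. The members' median log2 difference was -0.08, against 0.16 over all genes. Raising the filter to 5 FPKM brought the median of all genes to 0.11 and left 6 members higher and 10 lower. Median-ratio scaling gave 2 higher and 16 lower, quantile normalisation 3 and 9, and equal FPKM totals 14 and 7. FOXM1 and KIF4A stayed higher, and CCNB1, CKS2, PLK1, CDC20, UBE2C and KIF20A lower, under all 17 alternatives. CDC25C was not called with median-ratio scaling, at a log2 difference of 0.25, or after quantile normalisation, at 0.20. Without FDX1-OE ES replicate 1 the counts were 6 and 18, without FDX1-OE ES replicate 2 they were 11 and 9, without control ES replicate 1 they were 3 and 8 and without control ES replicate 2 they were 4 and 6. CDC25C was not called without control ES replicate 1 (adjusted p = 0.112) or without FDX1-OE ES replicate 2 (adjusted p = 0.0588). CDK1 was called without FDX1-OE ES replicate 2, at 0.50 (adjusted p = 0.00413). This comparison shares the FDX1-OE ES libraries with the ES comparison in FDX1-OE cells, so the 2 sets of values are not independent.

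With DMSO in both, no member was called between FDX1-OE and control cells: limma gave 0 of 41 in either direction, and 0 with an unadjusted p below 0.05. Over all genes 0.00829% were called higher, which is FDX1 itself, 0% were called lower, and 420 had an unadjusted p below 0.05. The 3 members with the smallest p were PLK1, at a log2 difference of -0.20 (SE 0.11, adjusted p = 0.999), KIF4A, at a log2 difference of -0.10 (SE 0.07, adjusted p = 0.999), and CDC20, at a log2 difference of -0.09 (SE 0.06, adjusted p = 0.999). FOXM1, CCNB1 and CDK1 had log2 differences of -0.04 (SE 0.08, adjusted p = 0.999), 0.09 (SE 0.09, adjusted p = 0.999) and -0.06 (SE 0.13, adjusted p = 0.999). The libraries did not overlap for PLK1, KIF4A or CDC20, lower in each FDX1-OE DMSO library than in each control DMSO library, nor for CCNB1, which was higher. In all, 14 members (34.1%) were lower and 3 (7.3%) higher without overlap, against 19.5% of all genes tested in either direction. With 2 libraries against 2, an exact two-sided permutation test of a single gene cannot give a p below 0.333.

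The effect of ES differed between FDX1-OE and control cells for 8 members (19.5%), near the 19% of all genes tested. The difference of the log2 fold changes, ES effect in FDX1-OE cells minus ES effect in control cells, was 0.56 (SE 0.11, adjusted p = 0.0154) for FOXM1, 0.48 (SE 0.09, adjusted p = 0.0133) for KIF4A and 0.39 (SE 0.09, adjusted p = 0.0232) for MKI67. It was -0.85 (SE 0.13, adjusted p = 0.00732) for CCNB1, -0.65 (SE 0.08, adjusted p = 0.00433) for CDC20 and -0.52 (SE 0.14, adjusted p = 0.0348) for KIF20A. CKS2 and PTTG1 had -0.46 and -0.43, called under 13 and 7 of the 16 alternatives that apply. CDK1 had a difference of 0.33 (SE 0.19, adjusted p = 0.24) and was not called. Over all genes tested, 13.9% had a positive and 5.06% a negative difference that was called, with a median of 0.15, against -0.05 over the members. Raising the filter to 5 FPKM brought the median of all genes to 0.11 here too. Median-ratio scaling gave 1 positive and 10 negative members, quantile normalisation 3 and 4, and equal FPKM totals 5 and 3. CCNB1 and CDC20 were called under all 16.

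The calls of FOXM1, KIF4A, MKI67 and KIF20A for this difference were lost without most single libraries outside the FDX1-OE ES group. The fitted differences kept their sign. Where the call was lost this way, FOXM1 had 0.51 to 0.57, KIF4A 0.46 to 0.51, MKI67 0.34 to 0.44 and KIF20A -0.58 to -0.47. PTTG1 lost its call without any 1 of the libraries outside the FDX1-OE ES group. CKS2 lost its call without control DMSO replicate 1, FDX1-OE DMSO replicate 1 or control ES replicate 2. Leaving out any 1 library outside the FDX1-OE ES group took the adjusted p of MKI67 to between 0.0574 and 0.0993 and that of KIF20A to between 0.0765 and 0.114. For FOXM1 it came to between 0.0510 and 0.0661 without any of those libraries other than control DMSO replicate 2. For KIF4A it came to between 0.0501 and 0.0630 without any of them other than control ES replicate 2. CDK1 was called without FDX1-OE ES replicate 2, at 0.56 (adjusted p = 0.0114).

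Ratios within a library do not change when all its values are scaled by a single factor, though quantile normalisation can change them. The 3 ratios were chosen after the values were seen and carry no test. Each sets a member called lower with ES in FDX1-OE cells over a member called higher there. A lower ratio in FDX1-OE ES than in FDX1-OE DMSO libraries thus followed from the choice. CCNB1 over CDK1, cyclin over its kinase, was 0.522 and 0.574 in FDX1-OE ES libraries, 1.205 and 1.07 in control ES libraries, 1.52 and 1.66 in FDX1-OE DMSO libraries and 1.43 and 1.44 in control DMSO libraries. PLK1 over FOXM1 was 1.28 and 1.09 in FDX1-OE ES libraries, 2.94 and 2.37 in control ES libraries, 4.10 and 3.38 in FDX1-OE DMSO libraries and 4.10 and 4.19 in control DMSO libraries. CDC20 over KIF4A was 3.52 and 3.19 in FDX1-OE ES libraries, 7.62 and 7.21 in control ES libraries, 10.7 and 11.1 in FDX1-OE DMSO libraries and 10.6 and 10.9 in control DMSO libraries. For all 3 ratios the FDX1-OE ES libraries were lowest, the control ES libraries lay between, and the ES libraries did not overlap the DMSO libraries.

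The 2 FDX1-OE ES libraries differed from each other more than other pairs did, in the members and over all genes. The median absolute log2 difference between replicates was 0.20 over the members and 0.16 over all genes in FDX1-OE ES, 0.09 and 0.09 in control ES, 0.05 and 0.07 in FDX1-OE DMSO and 0.04 and 0.08 in control DMSO libraries. Of the 41 members 32 were lower in replicate 2 than in replicate 1, with a median log2 difference of -0.18, against 0.02 over all genes. The same count was 10 in control ES, 22 in FDX1-OE DMSO and 29 in control DMSO libraries, with medians of 0.08, -0.01 and -0.02. The members took 0.531% and 0.488% of all FPKM in FDX1-OE ES libraries, 0.503% and 0.517% in control ES, 0.466% and 0.456% in FDX1-OE DMSO and 0.470% and 0.468% in control DMSO libraries. FOXM1, CDC25C and CDC25B were higher in FDX1-OE ES replicate 2 than in replicate 1, and CDK1, TOP2A, CCNB1, CENPE and HMMR were lower. The part of this gap in the calls was not tested beyond the counts without each library.

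Around the members, each of 9 related gene lists held more higher than lower calls with ES in FDX1-OE cells, a balance that median-ratio scaling turned in 5 of them. For a reading of these counts, 47.1% of all genes were higher and 13.7% lower, with a median of 0.25. Of 23 genes of the E2F, RB family and MuvB regulators, which control cell cycle transcription, 16 were higher and 2 lower, with a median of 0.51. The repressors E2F8 and E2F7 led them. E2F8 averaged 23.8 ± 0.499 FPKM in FDX1-OE ES and 8.75 ± 0.197 FPKM in FDX1-OE DMSO libraries, a log2 fold change of 1.34 (SE 0.07, adjusted p = 9.61e-06). E2F7 averaged 6.70 ± 0.151 FPKM in FDX1-OE ES and 1.94 ± 0.124 FPKM in FDX1-OE DMSO libraries, with a log2 fold change of 1.39 (SE 0.11, adjusted p = 4.22e-05). E2F2, an activator, averaged 32.9 ± 3.04 FPKM in FDX1-OE ES and 19.6 ± 0.219 FPKM in FDX1-OE DMSO libraries, with a log2 fold change of 0.72 (SE 0.07, adjusted p = 0.000139). Median-ratio scaling left 9 higher and 3 lower.

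Brakes on CDK1 and other CDKs were 8 higher and 0 lower of 15 tested, of 19 listed. CDKN1A, the CDK inhibitor p21 and a p53 target, averaged 6.27 ± 1.13 FPKM in FDX1-OE ES and 0.407 ± 0.0379 FPKM in FDX1-OE DMSO libraries, with a log2 fold change of 2.36 (SE 0.14, adjusted p = 1.25e-05). In control cells it averaged 0.827 ± 0.151 FPKM in control ES and 0.207 ± 0.0251 FPKM in control DMSO libraries, with a log2 fold change of 0.60 (SE 0.14, adjusted p = 0.0388). CDKN1A thus passed the filter of 1 FPKM in at least 2 libraries only through the FDX1-OE ES libraries, where it was high. That filter favoured a higher call for CDKN1A in FDX1-OE cells. GADD45B, a stress protein that can inhibit CDK1, averaged 20.2 ± 2.90 FPKM in FDX1-OE ES and 5.76 ± 1.25 FPKM in FDX1-OE DMSO libraries, with a log2 fold change of 1.66 (SE 0.14, adjusted p = 6.34e-05). BTG1, an antiproliferative protein, averaged 19.7 ± 0.357 FPKM in FDX1-OE ES and 13.3 ± 0.169 FPKM in FDX1-OE DMSO libraries, with a log2 fold change of 0.53 (SE 0.07, adjusted p = 0.000348). Median-ratio scaling gave 6 higher and 2 lower in this list.

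Kinetochore and centromere genes outside the members were 20 higher and 1 lower of 30, with a median of 0.46. DSN1, of the MIS12 complex that anchors NDC80, averaged 30.6 ± 0.835 FPKM in FDX1-OE ES and 12.6 ± 0.189 FPKM in FDX1-OE DMSO libraries, with a log2 fold change of 1.21 (SE 0.07, adjusted p = 1.01e-05). CENPK, of the inner kinetochore, averaged 39.6 ± 2.04 FPKM in FDX1-OE ES and 19.3 ± 0.373 FPKM in FDX1-OE DMSO libraries, with a log2 fold change of 1.00 (SE 0.08, adjusted p = 5.67e-05). PMF1, also of the MIS12 complex, averaged 41.9 ± 3.496 FPKM in FDX1-OE ES and 22.4 ± 2.58 FPKM in FDX1-OE DMSO libraries, with a log2 fold change of 0.87 (SE 0.09, adjusted p = 0.000134). Median-ratio scaling left 11 higher and 2 lower.

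Condensin and cohesin, the ring complexes of chromosome structure, were 12 higher and 0 lower of 19, with a median of 0.28, and 6 higher and 2 lower under median-ratio scaling. NCAPG2, of condensin II, averaged 45.8 ± 0.812 FPKM in FDX1-OE ES and 26.3 ± 0.238 FPKM in FDX1-OE DMSO libraries, with a log2 fold change of 0.78 (SE 0.06, adjusted p = 3.41e-05). SMC1A, of the cohesin ring, averaged 50.8 ± 1.91 FPKM in FDX1-OE ES and 29.9 ± 0.629 FPKM in FDX1-OE DMSO libraries, with a log2 fold change of 0.75 (SE 0.06, adjusted p = 5.31e-05), and STAG1, which binds it, averaged 11.4 ± 0.419 FPKM in FDX1-OE ES and 5.09 ± 0.578 FPKM in FDX1-OE DMSO libraries, with a log2 fold change of 1.03 (SE 0.11, adjusted p = 0.000146). Spindle and cytokinesis genes outside the members were 11 higher and 0 lower of 23, with a median of 0.27, and median-ratio scaling turned this to 2 higher and 6 lower. KIF15, a spindle kinesin, averaged 11.0 ± 0.0869 FPKM in FDX1-OE ES and 6.42 ± 0.112 FPKM in FDX1-OE DMSO libraries, with a log2 fold change of 0.69 (SE 0.09, adjusted p = 0.000334). NUSAP1, a microtubule binder, averaged 69.2 ± 8.10 FPKM in FDX1-OE ES and 42.1 ± 1.47 FPKM in FDX1-OE DMSO libraries, with a log2 fold change of 0.70 (SE 0.11, adjusted p = 0.000998), and SPAG5, a spindle protein, averaged 64.4 ± 2.81 FPKM in FDX1-OE ES and 46.3 ± 2.61 FPKM in FDX1-OE DMSO libraries, with a log2 fold change of 0.47 (SE 0.07, adjusted p = 0.000818).

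Subunits and regulators of the anaphase promoting complex were 6 higher and 2 lower of 17, with a median of 0.15. Median-ratio scaling turned the balance here too, to 3 higher and 5 lower. UBE2S, the enzyme that extends ubiquitin chains after UBE2C, averaged 64.8 ± 1.12 FPKM in FDX1-OE ES and 97.5 ± 1.03 FPKM in FDX1-OE DMSO libraries, with a log2 fold change of -0.58 (SE 0.05, adjusted p = 7.28e-05). ANAPC16 and CDC23, subunits of the complex, averaged 24.5 ± 0.393 FPKM in FDX1-OE ES and 12.8 ± 0.725 FPKM in FDX1-OE DMSO libraries, with a log2 fold change of 0.89 (SE 0.07, adjusted p = 4.22e-05), and 25.9 ± 1.92 FPKM in FDX1-OE ES and 16.5 ± 0.243 FPKM in FDX1-OE DMSO libraries, with a log2 fold change of 0.62 (SE 0.07, adjusted p = 0.000221). CDC23 shares bases with KIF20A on the opposite strand. UBE2S was thus lower, like CDC20 and PTTG1, while both named subunits were higher.

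Phosphatase control of mitotic entry and exit gave 3 higher and 1 lower of 9 tested, of 11 listed. Median-ratio scaling turned the balance, to 2 higher and 3 lower. MASTL, the Greatwall kinase that restrains the phosphatase opposing CDK1, averaged 19.5 ± 0.425 FPKM in FDX1-OE ES and 8.42 ± 0.597 FPKM in FDX1-OE DMSO libraries, with a log2 fold change of 1.12 (SE 0.08, adjusted p = 3.45e-05). ENSA, its substrate, averaged 122 ± 2.71 FPKM in FDX1-OE ES and 91.1 ± 0.756 FPKM in FDX1-OE DMSO libraries, with a log2 fold change of 0.41 (SE 0.05, adjusted p = 0.000338). CDC14A, a mitotic exit phosphatase first known from yeast, averaged 1.13 ± 0.00336 FPKM in FDX1-OE ES and 0.365 ± 0.135 FPKM in FDX1-OE DMSO libraries, with a log2 fold change of 0.65 (SE 0.12, adjusted p = 0.00222). CDC14A lay near the filter of 1 FPKM, which its FDX1-OE ES libraries reached and its FDX1-OE DMSO libraries did not. That filter favoured a higher call for CDC14A.

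Genes of the earlier cycle gave 4 higher and 1 lower of 9 tested G1 and S cyclins and CDKs, of 11 listed, and 19 higher and 3 lower of 35 S phase and DNA replication genes, with a median of 0.23. CCNE2, cyclin E2, averaged 44.9 ± 3.18 FPKM in FDX1-OE ES and 10.8 ± 0.848 FPKM in FDX1-OE DMSO libraries, with a log2 fold change of 1.96 (SE 0.09, adjusted p = 4.51e-06). CDK2, its kinase, averaged 81.1 ± 1.61 FPKM in FDX1-OE ES and 47.6 ± 2.04 FPKM in FDX1-OE DMSO libraries, with a log2 fold change of 0.76 (SE 0.08, adjusted p = 0.000151), and CDK6, a G1 kinase, averaged 18.2 ± 2.66 FPKM in FDX1-OE ES and 13.0 ± 0.825 FPKM in FDX1-OE DMSO libraries, with a log2 fold change of 0.45 (SE 0.10, adjusted p = 0.00475). RRM2 and RRM1, the subunits of ribonucleotide reductase, averaged 172 ± 4.28 FPKM in FDX1-OE ES and 92.4 ± 1.08 FPKM in FDX1-OE DMSO libraries, with a log2 fold change of 0.89 (SE 0.05, adjusted p = 1.51e-05), and 127 ± 2.31 FPKM in FDX1-OE ES and 78.7 ± 0.675 FPKM in FDX1-OE DMSO libraries, with a log2 fold change of 0.69 (SE 0.05, adjusted p = 3.96e-05). TYMS, thymidylate synthase, averaged 177 ± 17.0 FPKM in FDX1-OE ES and 93.2 ± 1.31 FPKM in FDX1-OE DMSO libraries, with a log2 fold change of 0.91 (SE 0.07, adjusted p = 3.85e-05). With median-ratio scaling the 2 lists gave 2 higher and 4 lower, and 8 higher and 10 lower.

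In control cells, where 6.74% of all genes were higher and 1% lower, these lists had 2 higher among the brakes (13.3%), 0 among S phase genes and 1 higher in each of the other 7 (3.33% to 11.1%), with none lower. Beyond CDKN1A, they were GTSE1, which restrains p53 in G2, at a log2 fold change of 0.35 (SE 0.07, adjusted p = 0.0285), CENPK, at a log2 fold change of 0.57 (SE 0.08, adjusted p = 0.0124), E2F8, at a log2 fold change of 0.29 (SE 0.07, adjusted p = 0.0467), and CCNE2, at a log2 fold change of 0.46 (SE 0.09, adjusted p = 0.026). NCAPG2, SPAG5, ANAPC16 and ENSA made up the rest, with log2 fold changes of 0.26, 0.33, 0.35 and 0.31. The difference between the ES effects was called in each list, beside 13.9% positive and 5.06% negative over all genes tested. Positive calls were 14 of 35 S phase genes (40%), 8 of 30 kinetochore genes and 7 of 23 E2F, RB family and MuvB regulators. They were 5 of 19 in condensin and cohesin, 4 of 15 brakes and 4 of 17 anaphase promoting complex genes, with 1 negative there. The G1 and S list had 2 of 9, spindle genes 1 of 23 and phosphatase control 1 of 9. With ES in control cells, the median log2 fold change of the S phase genes was -0.06, against 0.09 over all genes. There 22 of 35 S phase genes lay below 0, as did 3762 of the 12063 genes tested. In FDX1-OE cells the S phase median was 0.23, near the 0.25 of all genes. CCNE2 had a difference of 1.5 (SE 0.13, adjusted p = 0.000894) and CDKN1A 1.76 (SE 0.19, adjusted p = 0.00212). CDKN1A passed the filter only through the FDX1-OE ES libraries.

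**Figure D5:**
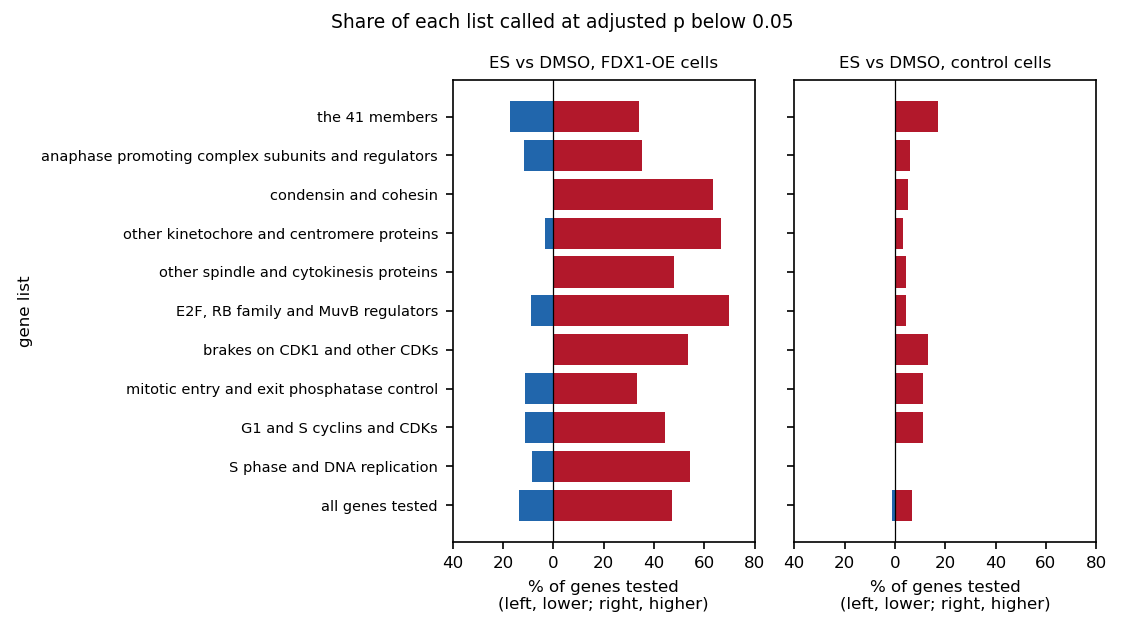
Share of the genes tested in each list that were called higher (red, to the right) or lower (blue, to the left) with ES, in FDX1-OE cells (left panel) and control cells (right panel), in percent. The 41 members had 34.1% higher and 17.1% lower in FDX1-OE cells, beside 47.1% and 13.7% of all genes tested.

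Some members have near-identical copies in the genome. The highest level of any such copy listed was 1.56 FPKM, for UBE2CP2 beside UBE2C, and CKS1BP3 reached 1.11 FPKM beside CKS1B. PTTG3P, a copy of PTTG1, was listed at 0 in every library. Beyond the overlaps already named, KIF4A shares 1.7% of its exon bases with PDZD11 on the opposite strand, CCNA2 9.08% with EXOSC9 and KIF20A 3.34% with BRD8, and PLK1 shares 0.88% with ERN2. BRD8 had a log2 fold change of 1.29 with ES in FDX1-OE cells, opposite in sign to that of KIF20A, and its part in the KIF20A values was not tested.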

How the data were processed

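RNA of WSU-DLCL2 cells was sequenced by the authors in 8 libraries, 2 in each of 4 groups. The deposited files hold 1 value per gene symbol row, read here as FPKM computed by the authors; no header names the unit, which was inferred from the values. Per the submitters' processing notes HISAT2, HTSeq, R 3.2.0 and hg19 were used, with no roles given. Strand handling and absolute depth are not given in the sources used here, so no counting interval is printed.

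Values were used as log2(FPKM + 1). A row entered the tests (12063 rows) when 2 or more libraries reached 1 FPKM. A linear model of 4 group means was fitted with limma 3.58.1 (R 4.3.3), a mean-variance trend (4 residual and 4.25 prior degrees of freedom) and two-sided tests with Benjamini-Hochberg adjustment. There were 5 comparisons: the effect of ES in FDX1-OE and in control cells, FDX1-OE against control under each treatment, and the difference between both ES effects. The fit was run on simulated data with the same spread in all groups and few genes changed. That run does not cover the wider spread of the FDX1-OE ES libraries or the large share of genes called here.

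Values of each library are given for FOXM1, CCNB1 and CDK1 and for up to 3 called members with the largest fold change in each direction, or the 3 with the smallest p where none was called. Values of each library for PTTG1 and NDC80 were added after they were seen. Values of the FDX1-OE ES libraries for AURKA and HMMR are also given, outside this rule. For each related list, up to 3 genes with the smallest p are named. The members and lists were chosen with earlier results of these data known. The alternatives were another pseudocount, 2 other filters, 3 scalings, array weights, a replicate block, a fit of only the groups compared and each library left out. Promoter windows came from RefSeq on GRCh38.p14 and gene positions from GENCODE 29.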

Additional observations from a re-analysis of the deposited data

Results flagged for a closer look

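The ES effect differed between FDX1-OE and control cells, by limma's test of the difference itself, for 8 of the 41 members (19.5%). Over all genes tested the share was 19%, about the same. The difference of the log2 fold changes (ES effect in FDX1-OE cells minus ES effect in control cells) was -0.85 for CCNB1 (adjusted p = 0.00732), -0.65 for CDC20 (adjusted p = 0.00433), -0.52 for KIF20A (adjusted p = 0.0348) and -0.46 for CKS2 (adjusted p = 0.0144). It was -0.43 for PTTG1 (adjusted p = 0.0297), 0.39 for MKI67 (adjusted p = 0.0232), 0.48 for KIF4A (adjusted p = 0.0133) and 0.56 for FOXM1 (adjusted p = 0.0154). For CKS2, KIF20A and PTTG1 the fitted ES effects had opposite signs, below 0 in FDX1-OE cells and above 0 in control cells. For KIF20A neither effect was called, and for PTTG1 the one in control cells was 0.01 and not called. For FOXM1, KIF4A and MKI67 both fitted effects were above 0. The median of this difference over all genes tested was 0.15, so a member with no difference lies below the median of all genes.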

How the results depend on the processing

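With ES in FDX1-OE cells, all genes tested gave 3069 higher and 3287 lower with median-ratio scaling, 2783 and 2937 after quantile normalisation and 7063 and 1093 with equal FPKM totals, against 5682 and 1652 as reported. The 14 higher members became 6 with median-ratio scaling and 22 with equal FPKM totals, and the 7 lower became 19 with median-ratio scaling. In control cells the 7 higher became 1 with no filter, 2 with median-ratio scaling, 1 after quantile normalisation, 16 with array weights, 4 with the replicate block and 14 with only the 2 groups compared in the fit. For FDX1-OE against control with ES the 6 higher became 3 with no filter, 2 with median-ratio scaling, 3 after quantile normalisation, 14 with equal totals, 3 with array weights and 3 with only the 2 groups, and the 10 lower became 16 with median-ratio scaling. For the difference between ES effects the 3 higher became 1 with median-ratio scaling and 5 with equal totals, and the 5 lower became 3 with no filter, 10 with median-ratio scaling and 3 with equal totals.

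Leaving out 1 library at a time gave 12 to 23 higher and 5 to 13 lower with ES in FDX1-OE cells, 0 to 17 higher and 0 lower in control cells, 3 to 11 higher and 6 to 18 lower for FDX1-OE against control with ES, 0 with DMSO, and 0 to 7 higher and 2 to 10 lower for the difference between ES effects. These fits have fewer samples, and where an arm keeps 1 library it is assumed to vary like the other groups. The FDX1-OE ES libraries had the lowest array weight, 0.359, against 1.21 to 1.54 in the other groups. Values near 0 changed sign without being called: the ES effect on CCNB1 in control cells ran from -0.0308 to 0.0012 without 1 library, with 0.00039 without control DMSO replicate 1, and was -0.129 with median-ratio scaling. Over all alternatives FDX1-OE against control with DMSO ran from -0.0823 to 0.0012 for FOXM1 and from -0.13 to 0.0067 for CDK1. The replicate block changed no other count of members by more than 1.5 times. It gave 14 higher and 7 lower with ES in FDX1-OE cells, and 3 and 7 for the difference between effects. The deviations of same-numbered libraries correlated between -0.0499 and 0.0793. No label says what the number marks, and these values do not settle whether same-numbered libraries were handled together. Scaling limits every count here, and no spike-in value is used here. FDX1-OE ES libraries have the smallest FPKM sums, with total factors of 0.934 and 0.922 against 1.02 to 1.03 in the other groups. Their median-ratio factors were the largest, at 1.142 and 1.139 against 0.930 to 1.021. These 2 scalings moved the counts with ES in FDX1-OE cells in opposite directions. The cause of these gaps was not tested. With 2 libraries a group and no absolute depth given, small changes may not be detectable.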
